A study of Rattus norvegicus with 11 samples.

Results

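The 10 genes described here encode enzymes that make, use or break down arginine, ornithine, creatine and polyamines, together with the enzyme that forms dopamine in the kidney: Cps1, Ass1, Asl, Arg2, Gatm, Oat, Odc1, Sat1, Agmat and Ddc. They were taken by gene symbol from the non-control probes of 11 one-colour oligonucleotide arrays of rat renal cortex. All 10 were on the array, with 12 of its 30367 probes (Gatm and Ddc have 2 probes each), and all 10 passed the filter on dim probes, among 25256 genes tested.

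The kidney is a main source of circulating arginine. Proximal tubule cells take up citrulline and turn it into arginine through argininosuccinate synthase (Ass1) and argininosuccinate lyase (Asl). Glycine amidinotransferase (Gatm) joins arginine to glycine in the first step of creatine synthesis, and the mitochondrial arginase Arg2 splits arginine into urea and ornithine. Ornithine is passed either to glutamate semialdehyde by ornithine aminotransferase (Oat) or to the polyamine putrescine by ornithine decarboxylase (Odc1), and spermidine/spermine acetyltransferase (Sat1) acetylates the higher polyamines for breakdown or export. Carbamoyl phosphate synthetase (Cps1), which starts the urea cycle in liver and small intestine, is not known as an abundant kidney transcript. Dopa decarboxylase (Ddc) makes dopamine from filtered L-DOPA in proximal tubule cells, and Agmat is annotated as agmatinase, which splits agmatine, the decarboxylated form of arginine.

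Control rats were SD rats. Type 1 diabetes (DM in the group names) had been induced in the others with streptozotocin (STZ), a toxin that destroys insulin-producing beta cells. After 4 weeks each kind of rat received either a sham operation or RYGB (Roux-en-Y gastric bypass), and renal cortex was taken 4 weeks after surgery. The 4 groups were Control+Sham with 3 arrays, DM+Sham with 3, Control+RYGB with 3 and DM+RYGB with 2, each array carrying Cy3-labelled total RNA. The labels state neither sex nor age, and nothing says that the arrays of a group came from separate animals, so p-values measure only the spread between these samples.

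Between 77.8% and 93.5% of probes were well above background per array, and no probe was saturated. For arrays DM+Sham 2 and 3 the spread of the difference was 0.01005 log2 units, under the noise of 0.0559 between repeated spots of a probe on a single array. The same held for Control+RYGB 2 and 3 (0.0236 against at most 0.053). Each such pair was averaged and counted as 1 sample, which left 9 samples (3, 2, 2 and 2). Fits with the day of scanning as a term counted DM+Sham 2 and 3, scanned on different days, as 2 samples although they were this close. Of 15 proximal tubule markers, all were well above background on every array. DM+RYGB 2 stood apart, with a summed level of 11 heart and skeletal muscle markers of 371.6 times the array's 75th percentile, against 0.5454 to 1.293 on the other 10 arrays. Markers of urothelium, the lining of the renal pelvis, also differed between groups: their summed level was 2.172 to 2.356 in Control+Sham and 0.194 to 0.5572 in the other groups. Whether muscle or urothelial RNA had a part in any result below was not tested. Fewer cells of a type and less RNA per cell cannot be told apart in these bulk samples.

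Start-site upstream sequences are shown for 4 members because their signals moved in opposite ways after surgery in diabetic rats: the pair Ass1 and Asl, which fell, the polyamine-forming Odc1, which was not called, and the polyamine-acetylating Sat1, which rose. Each is the 250 bases before the RefSeq transcription start on assembly GRCr8, read 5′ to 3′ on the strand of the gene, which is the plus strand for all 4. They lie at chr3:35149480-35149729 for Ass1, chr12:32295658-32295907 for Asl, chr6:46058415-46058664 for Odc1 and chrX:44007839-44008088 for Sat1. Capitals mark matches to any of 6 motifs searched on both strands.
Ass1: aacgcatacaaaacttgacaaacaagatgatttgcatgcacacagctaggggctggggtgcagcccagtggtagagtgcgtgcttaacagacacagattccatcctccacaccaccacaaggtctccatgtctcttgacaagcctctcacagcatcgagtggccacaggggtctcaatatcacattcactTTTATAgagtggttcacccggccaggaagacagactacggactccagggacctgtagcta
Asl: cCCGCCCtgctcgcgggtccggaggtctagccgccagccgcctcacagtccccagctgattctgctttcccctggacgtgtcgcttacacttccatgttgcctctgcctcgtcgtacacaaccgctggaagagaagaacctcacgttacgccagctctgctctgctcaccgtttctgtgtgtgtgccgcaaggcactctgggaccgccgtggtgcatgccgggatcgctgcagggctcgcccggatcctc
Odc1: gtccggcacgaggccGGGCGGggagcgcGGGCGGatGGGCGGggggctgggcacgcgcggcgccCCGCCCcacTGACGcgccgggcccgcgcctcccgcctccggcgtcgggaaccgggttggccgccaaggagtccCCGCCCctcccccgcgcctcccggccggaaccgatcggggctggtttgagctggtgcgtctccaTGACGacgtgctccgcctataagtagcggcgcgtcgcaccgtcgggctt
Sat1: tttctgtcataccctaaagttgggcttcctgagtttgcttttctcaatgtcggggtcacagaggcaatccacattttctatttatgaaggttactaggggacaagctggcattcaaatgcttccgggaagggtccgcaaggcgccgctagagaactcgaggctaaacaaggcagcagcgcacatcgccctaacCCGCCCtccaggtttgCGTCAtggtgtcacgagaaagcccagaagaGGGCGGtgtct
The letters searched were TATAAA for the TATA box, GGGCGG for the GC box, GTTAAT for the core of HNF1 sites, CAAAGT for the core of HNF4 sites, TGACG for the core of cAMP response elements and CACGTG for the E-box. Different patterns can share no more than 2 bases at their ends. Over all 33469 windows of this length, TATAAA was in 12.9%, GGGCGG in 30.5%, GTTAAT in 6.45%, CAAAGT in 12.9%, TGACG in 18.2% and CACGTG in 5.59%. The Ass1 window held 1 match to TATAAA on the opposite strand (TTTATA, first base at -60 from the start) and no other match. The Asl window held 1 GC box. The Odc1 window held 5 GC boxes and 2 matches to TGACG, and the Sat1 window held 2 GC boxes and 1 match to TGACG. G and C made up 78% of the Odc1 window and 52.8% of the Sat1 window, against a median of 51.2% over all windows. The shares given above do not allow for such differences in base content. Of the 9 members with a window (the table has none for Arg2), Cps1 had 1 CAAAGT match, Oat had 2 GC boxes, and Gatm and Agmat had no match to any of the 6 motifs. Ddc has 3 annotated starts, of which 1 window held a TATAAA match on the opposite strand (first base at -68) and another a CAAAGT match. These are matches of letters only.

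The level used throughout is a log2 signal set relative to the 75th percentile of its own array, so 0 is the level of the 75th percentile and differences are log2 changes. A member was called higher or lower when limma's adjusted p was under 0.05 with the same sign under 3 scalings between arrays (75th percentile, median and quantile). With RYGB in diabetic rats 5 of the 10 fell and 1 rose, where 10.9% of all genes fell and 13.1% rose. Diabetes in sham-operated rats lowered 2 of 10, where 6.45% of all genes fell and 6.65% rose. RYGB in control rats raised 2 of 10, where 7.77% of all genes rose and 5.49% fell. DM+RYGB set against Control+Sham, which differ by both diabetes and surgery, gave 6 lower and 1 higher, where 12% of all genes were lower and 15.1% higher. The interaction, which is the change with RYGB in diabetic rats minus that in control rats, was negative for 3 members, where 8.08% of all genes had a negative and 7.57% a positive one. Without DM+RYGB 2, the array with high muscle markers, 5 members were called with RYGB in diabetic rats, 6 in control rats, 6 for DM+RYGB against Control+Sham and 3 for the interaction. The counts over all genes were then 6899, 5459, 7138 and 5899, against 6063, 3350, 6840 and 3954 with all samples. Without DM+RYGB 1, more members and also more of all genes were called in each of these comparisons than with all samples. Either way 1 sample is left in the group, which is assumed to vary like the other groups. In a fit of only the groups compared, 1 member was called with RYGB in diabetic rats and 5 with RYGB in control rats. That fit called 3 with diabetes and 6 for DM+RYGB against Control+Sham. The counts over all genes were 1563, 5028, 4202 and 5095 in this order. Whether more members were called with RYGB in diabetic or in control rats thus depended on the samples fitted. These comparisons share samples and are not independent of each other.

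**Figure D1:**
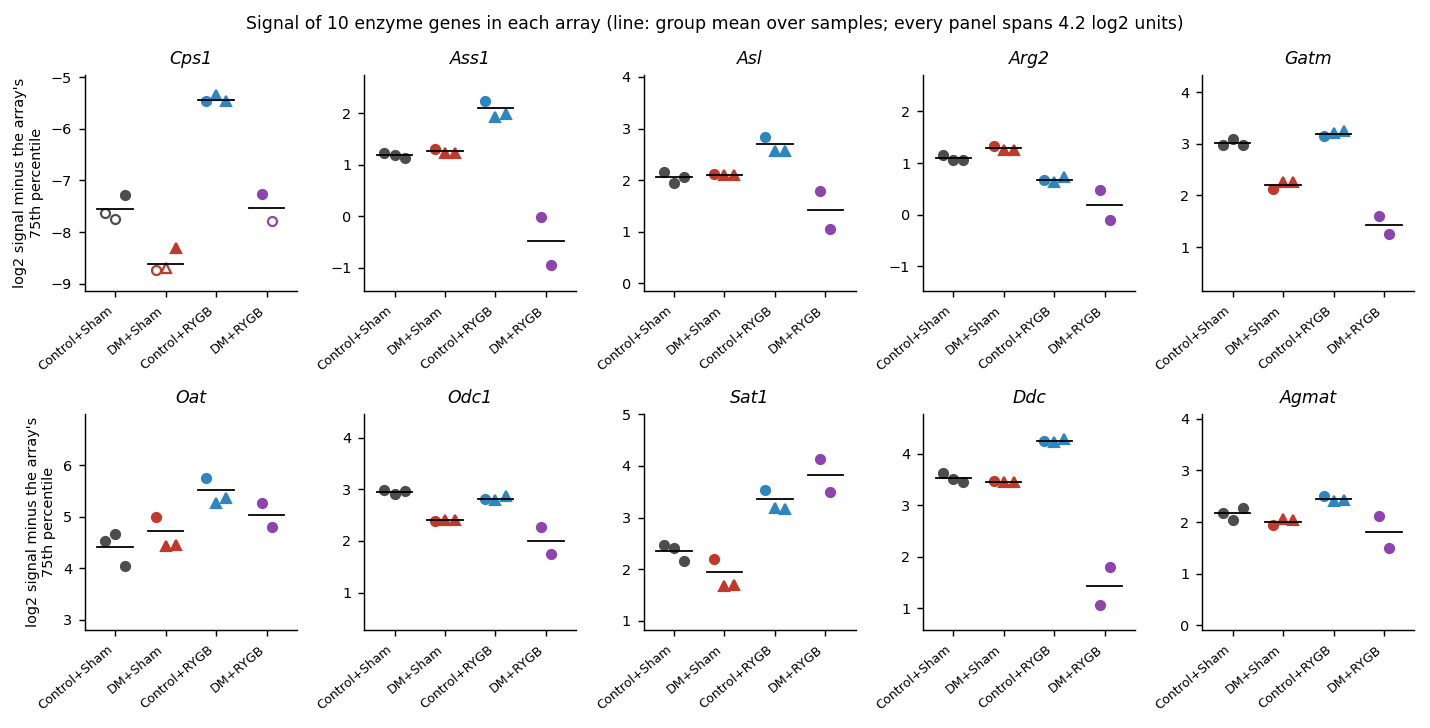
Level of each of the 10 genes in all 11 arrays, as log2 signal minus the array's 75th percentile, by group. Triangles are arrays averaged as 1 sample, open symbols are arrays where the probe was not well above background, and black lines are group means over samples. Ass1, Arg2, Gatm and Ddc were lowest in both DM+RYGB arrays, Sat1 was highest in the RYGB groups, and Cps1 was highest in the 3 Control+RYGB arrays.

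Ass1, which joins citrulline to aspartate, was close between the sham-operated groups and had surgery changes of opposite sign in control and diabetic rats. Its level was 1.23, 1.18 and 1.12 in Control+Sham 1 to 3 and 1.30, 1.22 and 1.23 in DM+Sham 1 to 3. After RYGB it was 2.24, 1.93 and 1.99 in the 3 Control+RYGB arrays but -0.02 and -0.94 in the 2 DM+RYGB arrays. Both DM+RYGB arrays lay below every other array, and all Control+RYGB arrays lay above. Group means were 1.18 ± 0.05 (SD, n = 3), 1.26 ± 0.05 (n = 2), 2.098 ± 0.20 (n = 2) and -0.48 ± 0.65 (n = 2), in the same order of groups. In diabetic rats Ass1 fell by 1.74 with RYGB (SE 0.28, limma adjusted p = 0.0036). The call was lost with the day of scanning as a term (-1.41, 0.049 in limma) and in a fit of only the groups compared (0.047), both under another scaling. In control rats its change with RYGB was 0.92 (SE 0.26, limma adjusted p = 0.041), which was not a call because it missed the threshold with median (0.062) and quantile (0.077) scaling. Diabetes alone gave a difference of 0.08 (limma adjusted p = 0.86).

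Asl, which releases arginine from argininosuccinate, had the same order of groups with smaller differences. Its level was 2.15, 1.94 and 2.06 in Control+Sham, 2.11, 2.09 and 2.09 in DM+Sham, 2.84, 2.56 and 2.57 in Control+RYGB, and 1.78 and 1.06 in DM+RYGB. The DM+RYGB arrays again lay lowest and the Control+RYGB arrays highest, while the sham-operated groups overlapped. Asl fell by 0.68 with RYGB in diabetic rats (SE 0.24, limma adjusted p = 0.048). This call is fragile. Without DM+RYGB 2 the change was -0.32 (limma adjusted p = 0.12), and leaving out any single sample of the other 3 groups also lost the call, at changes of -0.69 to -0.67 and limma adjusted p-values of 0.066 to 0.14. With the scan day as a term the change was -0.42 (limma adjusted p = 0.24), and in a fit of only the groups compared the adjusted p was 0.17. With RYGB in control rats the change was 0.65 (SE 0.22, limma adjusted p = 0.065). Over the 9 samples, Ass1 and Asl had a Pearson r of 0.963, the highest between any pair of members. The samples share group structure and scaling.

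Arg2, the mitochondrial arginase that returns ornithine, fell with surgery in diabetic rats. It read 1.15, 1.05 and 1.06 in Control+Sham and 1.33, 1.25 and 1.24 in DM+Sham. It read 0.68, 0.63 and 0.72 in Control+RYGB and 0.48 and -0.10 in DM+RYGB. The 4 groups did not overlap at any point, in the order DM+Sham, Control+Sham, Control+RYGB and DM+RYGB. With RYGB in diabetic rats Arg2 fell by 1.095 (SE 0.19, limma adjusted p = 0.0044), and in control rats its change was -0.41 (SE 0.17, limma adjusted p = 0.11). The call in diabetic rats was lost with the scan day as a term (-0.91, limma adjusted p = 0.085) and in a fit of only the groups compared (0.057). The difference with diabetes in sham-operated rats was 0.20 (limma adjusted p = 0.47), although these groups did not overlap.

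Cps1, which makes carbamoyl phosphate from ammonia at the entry to the urea cycle, was the only dim member. Its probe was well above background on 1 of 3 Control+Sham arrays (array 3), 1 of 3 DM+Sham arrays (array 3), 3 of 3 Control+RYGB arrays and 1 of 2 DM+RYGB arrays (array 1). The levels were -7.63, -7.76 and -7.28 in Control+Sham, -8.74, -8.69 and -8.32 in DM+Sham, -5.46, -5.35 and -5.46 in Control+RYGB, and -7.26 and -7.79 in DM+RYGB. Control+RYGB stood above the rest and DM+Sham below them, without overlap. Cps1 rose by 2.12 with RYGB in control rats (SE 0.21, limma adjusted p = 0.0023) and fell by 1.07 with diabetes in sham-operated rats (SE 0.21, limma adjusted p = 0.017). The fall with diabetes was not called without Control+Sham 1, Control+Sham 2, DM+Sham 1 or DM+Sham 2 and 3 (-1.19 to -0.95, limma adjusted p-values of 0.038 to 0.087, the lowest of which missed under another scaling). Both calls are differences near background: with normexp background correction they were 0.39 and -0.41 (limma adjusted p = 1 for each). With the scan day as a term they were 1.80 (limma adjusted p = 0.22) and -1.197 (0.12), also not called. In diabetic rats the change with RYGB was 1.098 (limma adjusted p = 0.0081) but -0.55 with quantile scaling, so no direction was called.

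Some transcripts best known from liver moved in the same arrays as Cps1, and others moved the other way. Of 14 such genes on the list, 8 rose and 1 fell with RYGB in control rats, where 7.77% of all genes rose and 5.49% fell. Albumin (Alb, 2.95) and fibrinogen gamma chain (Fgg, 2.27) were among those that rose. Cyp2c11 went the other way, from -0.21, -0.12 and -0.18 in Control+Sham to -2.90, -3.15 and -2.99 in Control+RYGB. With diabetes in sham-operated rats 2 rose and 5 fell, with Alb at -3.15, where 6.65% of all genes rose and 6.45% fell. Apoh was higher there, at -1.63, -1.60 and -1.62 in DM+Sham against -2.41, -2.44 and -2.42 in Control+Sham. Their summed level was 13.07 to 16.88 times the 75th percentile in Control+Sham, 10.34 to 10.81 in DM+Sham, 30.8 to 39.57 in Control+RYGB and 12.08 to 14.52 in DM+RYGB. Transferrin (Tf) had the highest level of the 14 on every array and so weighs most in this sum. All 14 were well above background on all 11 arrays. Fgg was also the named gene whose level was most like that of Cps1 across the 9 samples (Pearson r = 0.984), ahead of Sh3bp5 (0.983) and Mug1l1 (0.977). Of 6 measured small intestine markers, the others known for high Cps1, none passed the call rule with RYGB in control rats (0 also at an unadjusted p under 0.05 in limma), and their summed level was 0.6877 to 0.8471 in Control+RYGB against 0.7227 to 0.7594 in Control+Sham. The part of these transcripts in the Cps1 result was not tested.

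Gatm, which makes guanidinoacetate for creatine, fell with diabetes and fell again with surgery in diabetic rats. The probe with the higher signal read 2.98, 3.10 and 2.98 in Control+Sham, 2.13, 2.26 and 2.27 in DM+Sham, 3.15, 3.21 and 3.24 in Control+RYGB, and 1.61 and 1.24 in DM+RYGB. Both diabetic groups lay below both control groups, and DM+RYGB lay below DM+Sham. Diabetes in sham-operated rats lowered Gatm by 0.83 (SE 0.14, limma adjusted p = 0.0099), and RYGB in diabetic rats changed it by -0.77 (SE 0.15, limma adjusted p = 0.0066). The call with diabetes was lost without DM+Sham 1 (-0.76, limma adjusted p = 0.06) and without DM+Sham 2 and 3 (-0.896, 0.055), and the call with surgery without DM+Sham 2 and 3 (-0.698, 0.043, lost under another scaling). With the scan day as a term neither was called (-0.85, limma adjusted p = 0.14, and -0.77, 0.1). Normexp correction also ended the call with diabetes (-0.83, limma adjusted p = 0.087), and a fit of only the groups compared ended the call with surgery (0.071). In control rats its change with RYGB was 0.17 (SE 0.14, limma adjusted p = 0.38).

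The 2 Gatm probes differed on the second of these steps. The other probe read 1.60, 1.62 and 1.55 in Control+Sham, 0.63, 0.58 and 0.60 in DM+Sham, 2.32, 2.05 and 2.12 in Control+RYGB, and 0.74 and -0.05 in DM+RYGB. It fell with diabetes by 0.98 (SE 0.22, limma adjusted p = 0.028). With RYGB in diabetic rats its change was -0.27 (SE 0.24, limma adjusted p = 0.38), and DM+RYGB 1 lay above all DM+Sham arrays. The fall with diabetes was therefore measured by both probes and the further fall with surgery by 1 of them. With the mean of the probes the surgery change was -0.52 (limma adjusted p = 0.053).

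Oat, which passes ornithine to glutamate semialdehyde, had no call in any comparison. Its level was 4.53, 4.65 and 4.04 in Control+Sham, 4.99, 4.44 and 4.45 in DM+Sham, 5.74, 5.26 and 5.36 in Control+RYGB, and 5.26 and 4.79 in DM+RYGB. Control+RYGB lay above Control+Sham without overlap, with a change of 1.12 (SE 0.28, limma adjusted p = 0.03), but with quantile scaling this was 0.30 (limma adjusted p = 0.094). In diabetic rats the change with RYGB was 0.31 (limma adjusted p = 0.41) and turned to -0.45 with quantile scaling.

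Odc1, the rate-limiting enzyme of polyamine synthesis, was called only for DM+RYGB against Control+Sham among the 5 comparisons with all samples in the fit. It read 2.99, 2.90 and 2.97 in Control+Sham, 2.39, 2.41 and 2.40 in DM+Sham, 2.81, 2.79 and 2.86 in Control+RYGB, and 2.28 and 1.74 in DM+RYGB. No diabetic array reached the lowest control array. The difference with diabetes in sham-operated rats was -0.56 (SE 0.16, limma adjusted p = 0.06), just short of a call. The change with RYGB in diabetic rats was -0.39 (SE 0.17, limma adjusted p = 0.098), but -0.66 without DM+RYGB 1 (limma adjusted p = 0.0035, called) and -0.12 without DM+RYGB 2 (0.26). The difference with diabetes was also called without either DM+RYGB array (adjusted p of 0.0034 and 0.0035) and in a fit of only the groups compared (0.014). DM+RYGB against Control+Sham was lower by a called difference of -0.95 (SE 0.16, limma adjusted p = 0.0032). Over the 9 samples Odc1 had a Pearson r of 0.951 with Gatm, a description of samples that share groups and scaling.

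Sat1, the acetylating enzyme that opens polyamine breakdown, was the member that rose with surgery in both kinds of rat. Its level was 2.47, 2.42 and 2.16 in Control+Sham and 2.19, 1.68 and 1.69 in DM+Sham. It was 3.54, 3.19 and 3.16 in Control+RYGB and 4.14 and 3.49 in DM+RYGB. Every array after RYGB lay above every sham-operated array. Sat1 rose by 1.88 in diabetic rats (SE 0.28, limma adjusted p = 0.0027) and by 1.01 in control rats (SE 0.25, limma adjusted p = 0.031). The interaction, 0.87 (SE 0.38, limma adjusted p = 0.15), did not pass, so the rises were not shown to differ. The call in control rats was lost when any single Control+Sham or Control+RYGB sample was left out, with changes of 0.83 to 1.196 and adjusted p-values of 0.06 to 0.18. It was also lost with the scan day as a term (1.58, limma adjusted p = 0.2) and with normexp correction (1.07, 0.1). In diabetic rats the rise was 2.39 with the scan day (limma adjusted p = 0.026) and was lost in a fit of only the groups compared, under another scaling (0.039).

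Agmat had no call in any comparison with all samples in the fit. It read 2.18, 2.05 and 2.27 in Control+Sham, 1.95, 2.05 and 2.05 in DM+Sham, 2.50, 2.40 and 2.42 in Control+RYGB, and 2.11 and 1.49 in DM+RYGB. Only Control+RYGB stood clear of Control+Sham, by 0.29 (SE 0.19, limma adjusted p = 0.27). With RYGB in diabetic rats the change was -0.20 (limma adjusted p = 0.44), with 0.11 without DM+RYGB 2 (0.46) and -0.50 without DM+RYGB 1 (0.024, called). Its 2 DM+RYGB arrays lay on either side of the DM+Sham arrays.

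Ddc, the dopamine-forming enzyme, fell with RYGB in diabetic rats on both of its probes. The probe with the higher signal read 3.62, 3.51 and 3.44 in Control+Sham, 3.47, 3.44 and 3.45 in DM+Sham, 4.25, 4.23 and 4.27 in Control+RYGB, and 1.07 and 1.81 in DM+RYGB. The DM+RYGB arrays lay far below the others, the sham-operated groups overlapped, and Control+RYGB lay above. Ddc fell by 2.02 (SE 0.23, limma adjusted p = 0.0012), and the other probe fell by 1.54 (SE 0.26, limma adjusted p = 0.0042). On that probe the sham-operated groups did not overlap, at 0.89, 0.72 and 0.75 in Control+Sham and 0.33, 0.30 and 0.26 in DM+Sham, a difference with diabetes of -0.48 (limma adjusted p = 0.22). Unlike Ass1, Asl, Arg2, Gatm and Odc1, its lower DM+RYGB value was in array 1, so the change was -2.39 without DM+RYGB 2 (limma adjusted p = 0.0003) and -1.65 without DM+RYGB 1 (0.00039), where Ass1 was at -2.20. Ddc was still called with the scan day as a term (-2.197, limma adjusted p = 0.033), where DM+Sham 2 and 3 counted separately. It was also called in a fit of only the groups compared (0.034). In control rats its change with RYGB was 0.73 (SE 0.21, limma adjusted p = 0.043), and 0.18 with quantile scaling (limma adjusted p = 0.62).

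**Figure D2:**
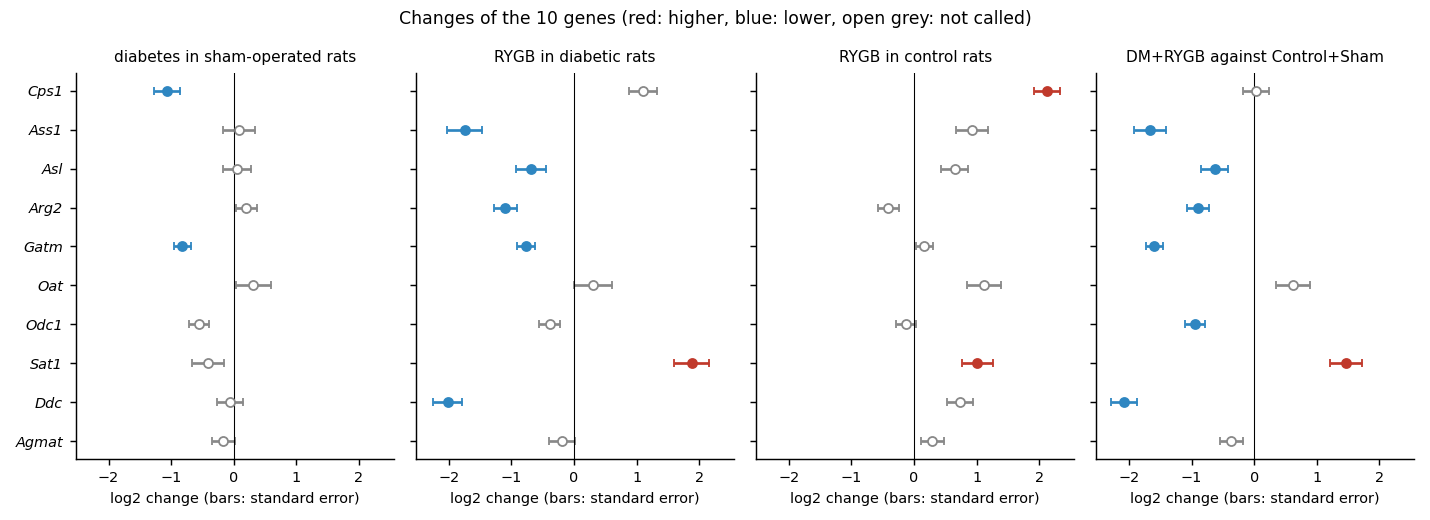
Log2 change of the 10 genes in 4 comparisons, with bars of 1 standard error from the limma fit on 75th percentile scaling. Filled red and blue points passed the call rule under all 3 scalings, and open grey points did not. Ass1, Asl, Arg2, Gatm and Ddc lie below 0 and Sat1 above 0 with RYGB in diabetic rats, where Cps1 is open because its sign depended on the scaling.

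Whether the change with RYGB differed between diabetic and control rats was tested as an interaction. This is not a test of opposite signs, and no change of Ass1, Asl or Ddc in control rats was called. The interaction was -2.66 for Ass1 (SE 0.38, limma adjusted p = 0.0051), -1.33 for Asl (SE 0.32, limma adjusted p = 0.029) and -2.74 for Ddc (SE 0.31, limma adjusted p = 0.0024). Without DM+RYGB 2 these were -2.20, -0.97 and -3.11, each with an adjusted p of 0.015 or less. The Asl interaction was not called when any single sample of the sham-operated or Control+RYGB groups was left out (-1.47 to -1.19, limma adjusted p-values of 0.053 to 0.1). For Gatm the interaction was -0.93 (SE 0.20, limma adjusted p = 0.02), short of a call because quantile scaling gave an adjusted p of 0.083. For Cps1 it was -1.02 (limma adjusted p = 0.056), for Arg2 -0.68 (0.1), for Oat -0.81 (0.21), for Agmat -0.49 (0.26) and for Odc1 -0.25 (0.48). Several of these turned on a single DM+RYGB array. Without DM+RYGB 1, Cps1 (-1.28, limma adjusted p = 0.021), Arg2 (-0.97, 0.0034) and Gatm (-1.12, 0.0038) were called as well. Without DM+RYGB 2, Arg2 was at -0.39 (limma adjusted p = 0.054), and Agmat was at -0.18 against -0.79 without DM+RYGB 1, while Odc1 was at 0.013 against -0.52. With the scan day as a term the interactions of Ass1, Asl and Ddc kept their size (-2.68, -1.38 and -2.79) but were not called (limma adjusted p-values of 0.057, 0.078 and 0.059).

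Set against the untreated state of Control+Sham, DM+RYGB cortex had lower Ddc (-2.08, SE 0.21, limma adjusted p = 0.00059), Ass1 (-1.66, SE 0.26, 0.0023), Gatm (-1.59, SE 0.14, 0.00038), Odc1 (-0.95), Arg2 (-0.90, SE 0.17, 0.0049) and Asl (-0.63, SE 0.22, 0.041). Sat1 was higher by 1.47 (SE 0.25, limma adjusted p = 0.0034). The second probes of Ddc (-2.02) and Gatm (-1.25) were also called lower. Without DM+RYGB 2, the Asl difference was -0.27 (limma adjusted p = 0.15) and the other 6 calls held, from -2.45 for Ddc to 1.79 for Sat1. Leaving out any single sample of the other 3 groups also lost the Asl call (-0.69 to -0.58, limma adjusted p-values of 0.057 to 0.11). Cps1 was at 0.03 (limma adjusted p = 0.91), and at -1.46 with quantile scaling. For Oat the difference was 0.62 (0.091) and for Agmat -0.36 (0.13), the latter at -0.67 without DM+RYGB 1 (0.0073, called) and -0.05 without DM+RYGB 2 (0.7). These groups share no scan day, and with the scan day as a term none of the 7 differences was called: Ddc was at -2.22 (limma adjusted p = 0.078), Gatm at -1.62 (0.082), Ass1 at -1.305 (0.11), Odc1 at -0.80 (0.18), Arg2 at -0.67 (0.23), Asl at -0.32 (0.46) and Sat1 at 2.03 (0.072). That fit had 4 members at an unadjusted p under 0.05. In a fit of only the groups compared Asl was not called (limma adjusted p = 0.087), and with normexp correction Sat1 was not (1.34, 0.013, lost under another scaling).

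Other proximal tubule genes moved with the fall in diabetic rats after RYGB. Of the 15 markers of this cell type, 10 fell and 0 rose (also 0 at an unadjusted p under 0.05 in limma), with a median change of -1.48, against a median of 0.57 for all genes and -0.54 for the 10 members. The sodium-bicarbonate cotransporter Slc4a4 changed by -3.96 and the endocytic receptor Cubn by -2.35, while the phosphate transporter Slc34a1 was at 0.45 (limma adjusted p = 0.31). The summed level of the 15 was 101.1 to 168.7 times the 75th percentile in DM+RYGB, 192.8 to 227.3 in DM+Sham, 165.4 to 224.7 in Control+Sham and 318.7 to 402.1 in Control+RYGB. Markers of segment 3, the straight part of the tubule, gave 4 lower and 1 higher of 6. Of all genes 10.9% fell and 13.1% rose. Some marker sums of other nephron parts were higher in DM+RYGB than in DM+Sham. Thick ascending limb was at 97.09 to 187.2 against 38.73 to 56.97, with 1 of 4 markers called higher. Umod had the highest level of these on every array and so weighs most in that sum. Distal convoluted tubule was at 13.52 to 21.51 against 7.317 to 8.34 (2 of 4 called higher). Podocytes were at 23.43 to 32.95 against 11.35 to 11.85 (3 of 5 called higher). No marker of these lists was called lower. The sums of collecting duct principal cells (61.92 to 89.65 against 48.34 to 69.01) and intercalated cells (19.17 to 28.1 against 19.54 to 19.97) overlapped. No marker of the 15 was called by limma with diabetes or with RYGB in control rats, where 1 and 2 were higher at an unadjusted p under 0.05 and none was lower. The part of tubule cell number in the falls of Ass1, Asl, Gatm and Ddc was not tested.

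**Figure D3:**
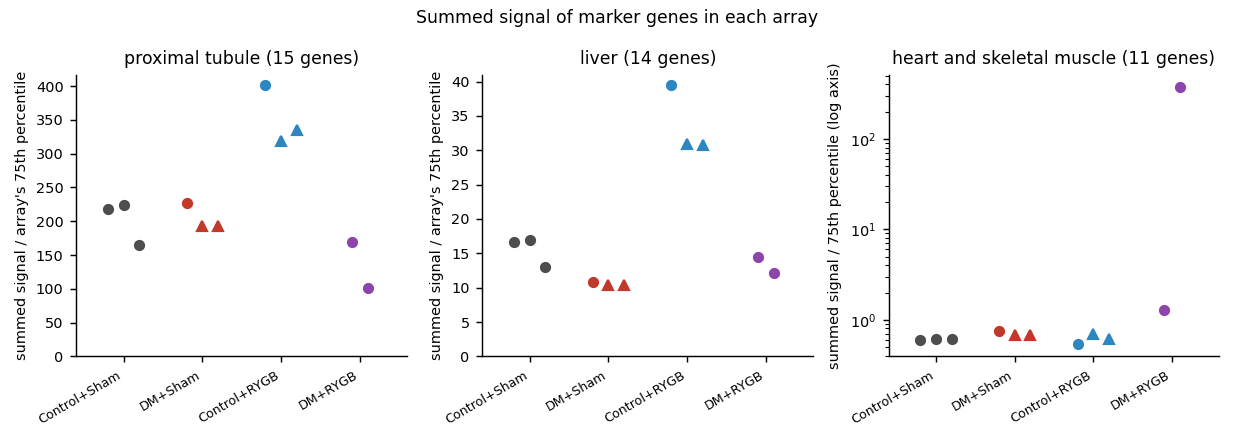
Summed signal of 3 marker lists in each array, as multiples of the array's 75th percentile, by group. Triangles are arrays averaged as 1 sample, and the muscle panel has a log axis. The proximal tubule sum was lowest in DM+RYGB 2 (101.1), with DM+RYGB 1 (168.7) close to Control+Sham 3 (165.4), the liver sum was highest in Control+RYGB (30.8 to 39.57), and the muscle sum reached 371.6 in DM+RYGB 2 alone.

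The rest of the pathways was read from 72 further genes on 5 lists, of which 66 were tested. Of these 66, 5 rose (7.58%) and 9 fell (13.6%) with RYGB in diabetic rats, where 13.1% of all genes rose and 10.9% fell, with a median change of 0.10. With diabetes in sham-operated rats 2 rose (3.03%) and 4 fell (6.06%), where 6.65% of all genes rose and 6.45% fell (median 0.15). With RYGB in control rats 5 rose (7.58%) and 1 fell (1.52%), where 7.77% of all genes rose and 5.49% fell (median 0.27). In these 3 comparisons the shares were near or below those of all genes. For DM+RYGB against Control+Sham 7 were higher (10.6%) and 14 lower (21.2%), where 15.1% of all genes were higher and 12% lower. The interaction was positive for 4 (6.06%) and negative for 12 (18.2%), where 7.57% of all genes had a positive and 8.08% a negative one. The lower shares were thus above those of all genes in both.

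Among 21 genes of arginine, ornithine and urea cycle metabolism, 2 rose (9.52%) and 1 fell (4.76%) with RYGB in diabetic rats. Of all genes 13.1% rose and 10.9% fell. Aldh18a1, which makes ornithine's precursor from glutamate, rose by 1.13 (SE 0.15, limma adjusted p = 0.0019), and the aspartate aminotransferase Got1 rose by 0.92 (SE 0.17, 0.0052). Proline dehydrogenase (Prodh) fell by 0.98 (SE 0.12, limma adjusted p = 0.0017) after having been higher by 1.46 with diabetes in sham-operated rats (SE 0.11, limma adjusted p = 0.00064). It read 1.62, 1.53 and 1.75 in Control+Sham, 3.18, 3.01 and 3.002 in DM+Sham, 2.33, 2.25 and 2.23 in Control+RYGB, and 2.12 and 2.11 in DM+RYGB. DM+Sham stood above every other array. With RYGB in control rats 3 of the 21 rose (14.3%), where 7.77% of all genes rose. These were the cytosolic arginase Arg1 (by 1.06, SE 0.13, limma adjusted p = 0.0047), Aldh4a1, which oxidises glutamate semialdehyde (1.37), and Prodh (0.65). Ornithine transcarbamylase (Otc) was at 0.70 in that comparison (limma adjusted p = 0.02, not called), and Nags, whose product activates Cps1, was at 0.09 (0.81). In DM+RYGB against Control+Sham 3 of the 21 were higher (14.3%) and 2 lower (9.52%), where 15.1% of all genes were higher and 12% lower. The nitric oxide synthases Nos2 (1.89) and Nos3 (1.57), which also consume arginine, and Got1 (1.08) were higher, and Otc was lower by a difference of -0.52.

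Of 7 measured arginine transporters, 2 fell (28.6%) and 0 rose with RYGB in diabetic rats, where 10.9% of all genes fell and 13.1% rose. Slc7a7, the light chain of the basolateral exporter of dibasic amino acids, read -0.74, -0.79 and -0.77 in Control+Sham, -1.45, -1.49 and -1.50 in DM+Sham, 0.05, 0.01 and 0.01 in Control+RYGB, and -3.45 and -4.04 in DM+RYGB. No groups overlapped. It fell by 2.27 with RYGB in diabetic rats (SE 0.19, limma adjusted p = 0.00054), fell by 0.71 with diabetes (SE 0.17, 0.035) and rose by 0.79 with RYGB in control rats (SE 0.17, 0.021). Its interaction was -3.07 (SE 0.25, limma adjusted p = 0.00093). Slc7a9, the light chain of the apical cystine and dibasic amino acid transporter, fell by 1.63 with RYGB in diabetic rats (SE 0.21, limma adjusted p = 0.0017). Against Control+Sham, DM+RYGB was also lower in Slc3a2, a heavy chain shared by several such carriers (-0.52, limma adjusted p = 0.013).

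None of the 6 other creatine genes was called by limma with diabetes, with RYGB in diabetic rats or with RYGB in control rats, where 2, 1 and 0 passed an unadjusted p under 0.05. Gamt, which methylates guanidinoacetate to creatine, was at -0.03 with RYGB in diabetic rats (SE 0.21, limma adjusted p = 0.9) and at -0.14 with diabetes (0.67). The creatine transporter Slc6a8 was at -0.27 (limma adjusted p = 0.29) with RYGB in diabetic rats and at 0.61 (0.053) in control rats, and turned to -0.18 in control rats with quantile scaling. The brain-type kinase Ckb was at 0.58 with diabetes (limma adjusted p = 0.073). The muscle kinase Ckm was at 3.19 in DM+RYGB 2 and between -7.11 and -4.01 in the other 10 arrays, which puts its change of 6.29 with RYGB in diabetic rats (SE 1.98, limma adjusted p = 0.035, not called) beside the high muscle markers of that array. In DM+RYGB against Control+Sham, Ckm (6.59) and the mitochondrial kinase Ckmt1 (1.18) were called higher.

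Of 22 polyamine genes, 3 rose (13.6%) and 5 fell (22.7%) with RYGB in diabetic rats, where 13.1% of all genes rose and 10.9% fell. Spermine oxidase (Smox), which breaks spermine down to spermidine, read -3.63, -3.62 and -3.83 in Control+Sham, -3.97, -4.31 and -4.33 in DM+Sham, -3.11, -3.33 and -3.59 in Control+RYGB, and -1.92 and -2.27 in DM+RYGB. The DM+RYGB arrays were clear of all others, and Smox rose by 2.05 (SE 0.20, limma adjusted p = 0.00084). The synthases moved the other way: spermine synthase (Sms) fell by 1.07 (SE 0.11, limma adjusted p = 0.00085) and spermidine synthase (Srm) by 0.70 (SE 0.15, 0.0087). Sms was 1.64, 1.60 and 1.60 in DM+Sham and 0.51 and 0.59 in DM+RYGB, against 1.18, 1.03 and 1.06 in Control+Sham. It was higher than Control+Sham in DM+Sham (0.53, limma adjusted p = 0.015) and in Control+RYGB (0.56, 0.012), and its interaction was -1.63 (SE 0.14, 0.0011).

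The remaining polyamine calls with RYGB in diabetic rats included transporters. Atp13a3, a polyamine-transporting ATPase, fell by 0.90 (SE 0.10, limma adjusted p = 0.0012). Slc22a2, an organic cation transporter, fell by 2.31 with diabetes (SE 0.51, limma adjusted p = 0.026) and rose by 1.95 with RYGB in diabetic rats (SE 0.56, 0.025). Its level was 1.03, 1.15 and 0.62 in Control+Sham, -0.94, -1.82 and -1.82 in DM+Sham, and 1.39 and -0.24 in DM+RYGB, where the 2 arrays differed widely. Dhps, which uses spermidine to modify a translation factor, rose by 1.06 (SE 0.18, limma adjusted p = 0.0046), and Mat2b, a regulatory subunit of the enzyme that makes the aminopropyl donor's precursor, fell by 0.455 (SE 0.10, 0.011). Amd1, which makes the aminopropyl donor, was at -0.43 (SE 0.24, limma adjusted p = 0.18), with 1.96 and 2.72 in the DM+RYGB arrays against 2.72 to 2.82 in DM+Sham, and the antizyme inhibitor Azin1, which protects Odc1 from degradation, was at -0.08 (0.61).

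Around Ddc, 1 of 10 renal dopamine genes was called with RYGB in diabetic rats. It fell (10% of the list), where 10.9% of all genes fell and 13.1% rose. The monoamine oxidase Maob fell by 0.60 (SE 0.10, limma adjusted p = 0.0046), after being lower with diabetes by a difference of -0.74 (SE 0.10, 0.0039). Renalase (Rnls), a secreted flavoprotein of the kidney, fell with diabetes by 1.202 (SE 0.14, limma adjusted p = 0.0027) and with RYGB in control rats by 0.55 (SE 0.14, 0.032). Maoa read -0.73 in DM+RYGB 1 and 0.95 in DM+RYGB 2, on either side of the DM+Sham arrays (-0.47 to -0.41), with a change of 0.56 (limma adjusted p = 0.34) that rests on DM+RYGB 2. Against Control+Sham, the receptor Drd5 was higher in DM+RYGB (1.37, limma adjusted p = 0.0057).

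**Figure D4:**
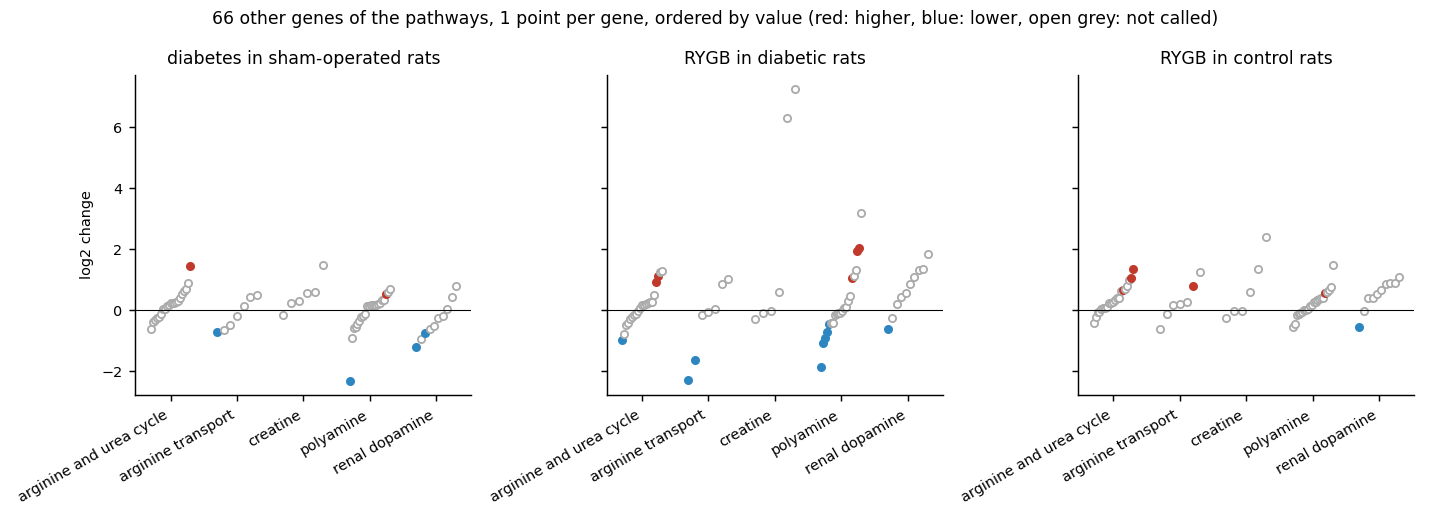
Log2 change of the 66 other genes on the 5 pathway lists in 3 comparisons, 1 point per gene, ordered by value within a list. Red and blue points passed the call rule and open grey points did not. With RYGB in diabetic rats the polyamine list held 3 red and 5 blue points, and the 2 open points above 6 in the creatine list are muscle transcripts high in DM+RYGB 2.

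The scaling between arrays set part of the size of these changes. With 75th percentile scaling the median change of all genes was 0.57 with RYGB in diabetic rats and 0.29 in control rats, 0.59 for DM+RYGB against Control+Sham, 0.23 for the interaction and 0.03 with diabetes. Quantile scaling brought these to between -0.06 and 0.04. The share of calls that were higher with RYGB in diabetic rats was 79.3%, 58.0% and 38.6% with 75th percentile, median and quantile scaling. In control rats it was 79.7%, 66.4% and 40.2%, for DM+RYGB against Control+Sham 80.2%, 59.1% and 42.5%, and for the interaction 60.8%, 43.4% and 43.3%. Against the quantile baseline, RYGB in diabetic rats changed Ass1 by -1.95, Asl by -0.80, Arg2 by -1.24, Gatm by -0.88, Ddc by -2.23 and Sat1 by 1.53.

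**Figure D5:**
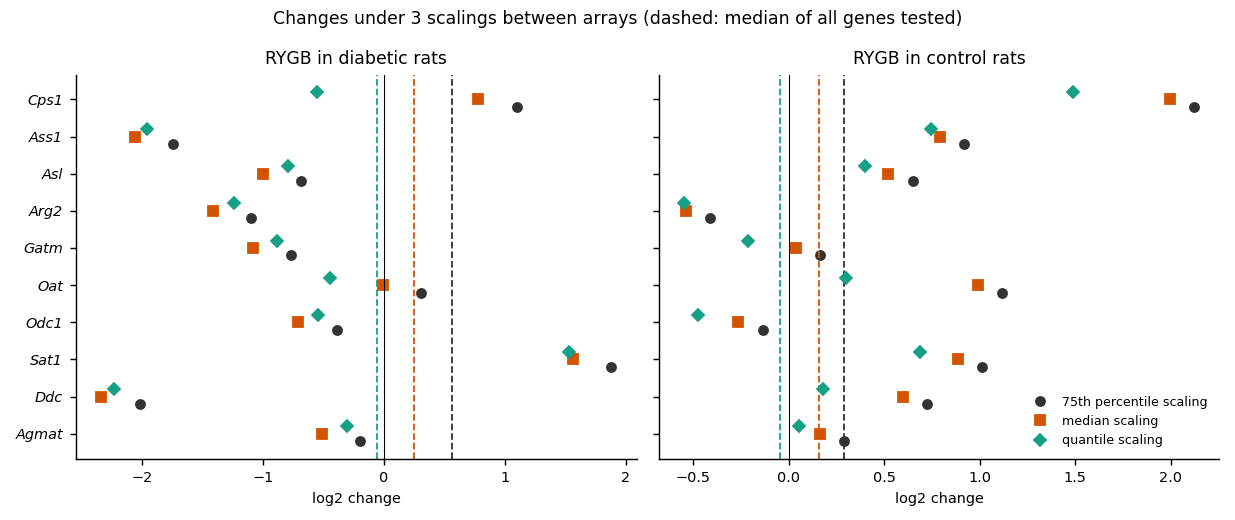
Log2 change of the 10 genes with RYGB in diabetic and in control rats under 75th percentile, median and quantile scaling, with dashed lines at the median change of all genes under each. Cps1 and Oat cross 0 in diabetic rats and Gatm in control rats, whereas Ass1, Asl, Arg2, Ddc and Sat1 keep their sign in diabetic rats.

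Days of scanning, as the file headers order them, were not balanced over groups. On the days that held both sham-operated groups, diabetes gave differences of -0.99 and -1.41 for Cps1, -0.98 and -0.72 for Gatm and -0.51 and -0.56 for Odc1, 1 array against 1. On the day that held DM+RYGB 1 and DM+Sham 3, the difference was -1.25 for Ass1, -0.31 for Asl, -0.76 for Arg2, -0.66 for Gatm, -2.38 for Ddc and 2.46 for Sat1. No day held both groups of RYGB in control rats, nor of DM+RYGB against Control+Sham, so for these no same-day difference could be taken. In the fit with the scan day as a term they were compared only by way of the DM+Sham arrays. That fit had 2 residual degrees of freedom and separates scan and group weakly. The Control+RYGB arrays also shared a barcode entry in the file headers that no other array had. DM+RYGB 2 had an entry of its own, while DM+RYGB 1 had that of the sham-operated arrays.

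Across the 9 samples, other named genes had profiles close to those of the members. The highest Pearson r was 0.995 with Ammecr1l for Ass1, 0.988 with Gimd1 for Asl, 0.986 with Ap1s1 for Arg2, 0.997 with Utp18 for Gatm and 0.996 with Gdi2 for Ddc. It was 0.995 with Mxi1 for Sat1, 0.992 with Thpol1 for Odc1, 0.982 with Kiaa1191 for Oat and 0.982 with Lta4h for Agmat. With 9 samples in 4 groups, these values mainly describe the same order of group means.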

How the data were processed

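Total RNA of renal cortex was labelled with Cy3 and hybridised to Agilent rat arrays, per the labels' protocols. The deposited scanner files hold spot intensity, background-subtracted by Agilent Feature Extraction 11.0.1.1 per the file headers. The authors' deposited value table was read as log2 values, since its columns correlated at 0.989 to 0.997 with log2 scanner intensity and share a median of 7.07; how it was normalized is not given in the sources used here, and it served as an alternative. Processed intensity was averaged over repeated spots, put on a log2 scale and set relative to the array's 75th percentile over non-control spots. A probe had to be well above background on 2 arrays or more, and the probe of highest mean stood for its gene; 18005 of 30367 probes had a symbol. Groups came from sample titles. Arrays indistinguishable within spot noise were averaged (9 samples, 5 residual degrees of freedom). Differences were tested over 25256 genes with limma 3.58.1 (R 4.3.3; lmFit, contrasts.fit, eBayes) and Benjamini-Hochberg adjustment; a call needed an adjusted p under 0.05 in 1 direction under 75th percentile, median and quantile scaling. The fit was tested on simulated data. The members and lists were chosen with earlier results of these data known. Text names the 10 members, 14 set partners, and per list and comparison up to 3 called genes of smallest adjusted p; some genes that this names are not reported here. Dhps, Slc4a4, Cubn, Slc34a1, Alb, Cyp2c11, Apoh, Tf and Umod were named after their values were seen. Replicate numbers did not pair samples: deviations of same-numbered arrays correlated between -0.38 and 0.45. Precision is limited by the number of arrays. Promoter windows are those of the RefSeq table on GRCr8, matched by symbol.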

Additional observations from a re-analysis of the deposited data

Results flagged for a closer look

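The change with RYGB in diabetic rats minus that in control rats, tested as the interaction term in limma, differed from 0 for 3 of the 10 enzymes. It was -2.66 for Ass1, -1.33 for Asl and -2.74 for Ddc on the log2 scale. Ass1 and Ddc kept this result when any single sample was left out, whereas Asl lost it when any 1 of the sham-operated or Control+RYGB samples was left out. With the day of scanning as a term the 3 values were -2.68, -1.38 and -2.79, with limma adjusted p-values of 0.057, 0.078 and 0.059.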

How the results depend on the processing

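Of 455 values obtained for the 20 called changes of the members under the alternative settings, 387 kept their call, 68 lost it and 0 reversed. The settings include each of the 3 scalings alone. A call already required all 3, so it could not be lost there, and those values are no check on it. Fewer genes were called with normexp background correction: 145 with diabetes, 2596 with RYGB in diabetic rats, 87 with RYGB in control rats, 3166 for DM+RYGB against Control+Sham and 659 for the interaction, against 3309, 6063, 3350, 6840 and 3954. The members called were then 0 with diabetes and 0 with RYGB in control rats (2 and 3 at an unadjusted p under 0.05 in limma). With the day of scanning as a term, the gene counts were 134, 1346, 0, 0 and 72 in the same order, and the member counts 0, 2, 0, 0 and 0. At an unadjusted p under 0.05 that limma fit had 2, 5, 2, 4 and 4 members, and 2016 and 3458 genes where the count was 0. It had 2 residual degrees of freedom and counted DM+Sham 2 and 3, scanned on different days, as separate samples.

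A single scaling called more genes: 13341, 11698 and 9466 with RYGB in diabetic rats for 75th percentile, median and quantile scaling, 6841 and 5841 with RYGB in control rats and 15287 and 13201 for DM+RYGB against Control+Sham for the first pair. The 75th percentile alone called 5 members with RYGB in control rats, and median and quantile scaling alone called 6 and 5 for the interaction. The authors' deposited table gave 9749, 5344 and 10452 genes in the 3 comparisons with surgery and 5 members for the interaction. Counting 11 separate arrays gave 7069 genes with diabetes, 6601 with RYGB in control rats and 6797 for the interaction, and 5 and 6 members for the last pair. With the replicate number as a block, on 11 separate arrays, 4, 5 and 7 members and 6643, 6292 and 6260 genes were called in these comparisons; the numbers did not pair the samples. A fit of only the groups compared called 1 member and 1563 genes with RYGB in diabetic rats, and 5 and 5028 in control rats. With RYGB in control rats, a fit with no filter on dim probes called 1 member and 3083 genes. Sat1 lost its call there (limma adjusted p = 0.035, lost under another scaling). A filter on all arrays also called 1 member, with 3410 genes, but it left Cps1 untested.

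Leaving out each sample in turn gave 0 to 3 members and 957 to 5836 genes with diabetes, 4 to 8 and 3500 to 6899 with RYGB in diabetic rats, 1 to 6 and 412 to 5493 with RYGB in control rats, 6 to 8 and 4784 to 7138 for DM+RYGB against Control+Sham, and 2 to 6 and 1687 to 5899 for the interaction. Both member calls with diabetes, Gatm and Cps1, were lost without DM+Sham 1 (0 members, 2 at an unadjusted p in limma) and without DM+Sham 2 and 3 (0 members, 3 at an unadjusted p). The lowest gene counts came without DM+Sham 2 and 3 (957), and with RYGB in control rats without Control+Sham 1 (996), Control+RYGB 1 (412) or Control+RYGB 2 and 3 (485).

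The 21 reversals were all of uncalled values. With RYGB in diabetic rats, Oat went to -0.006 with median scaling, -0.45 with quantile scaling and -0.52 in the deposited table, Cps1 to -0.55 and -0.30 with the latter pair, and Agmat ranged from -0.50 to 0.11 with samples left out in turn (0.11 without DM+RYGB 2). With RYGB in control rats, Gatm went to -0.21 and -0.25 with quantile scaling and the deposited table, and Odc1 to 0.0076 with the scan day. For DM+RYGB against Control+Sham, Cps1 went to -0.32 with median scaling, -1.46 with quantile scaling, -0.94 in the deposited table, -0.29 with the scan day, and -0.0061, -0.07 and -0.23 without Control+Sham 1, Control+Sham 2 and DM+RYGB 1 (up to 0.29 without DM+RYGB 2), and Oat to -0.30 and -0.35 with quantile scaling and the deposited table. The interaction of Cps1 went to 1.72 with normexp and that of Odc1 to 0.013 without DM+RYGB 2 (-0.52 without DM+RYGB 1). Asl with diabetes ranged from -0.0039 without Control+Sham 2 to 0.10 without Control+Sham 1. The causes were not tested. Cps1 is limited by signal near background, having been well above it on 6 of 11 arrays.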
